A study of Arabidopsis thaliana with 3 samples.

Results

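*FLC*, *MAF1* to *MAF5* and *SVP* encode MADS-box transcription factors that hold back the floral transition in *Arabidopsis*, and they are described here as 7 genes of the 33602 loci in an RNA-seq table. The genes were taken by locus: AT5G10140 (*FLC*), AT1G77080 (*MAF1*), AT5G65050 (*MAF2*), AT5G65060 (*MAF3*), AT5G65070 (*MAF4*), AT5G65080 (*MAF5*) and AT2G22540 (*SVP*). All 7 passed the filter on low counts, which asked for at least 10 reads in at least 1 library and left 18802 genes for testing. *FLC*, *MAF4* and *MAF5* reached 10 reads in OE lines only. The libraries came from OE line #3, OE line #6 and Col-0. OE line #3 and OE line #6 are independent T3 lines of Col-0 that carry 35S:SlHsfA3, a tomato heat stress transcription factor (Hsf) under the CaMV 35S promoter, which is active in most plant tissues. Each of the 3 genotypes gave 1 library, for which the shoots of 20 plants that met no stress were pooled at 4 weeks of age, grown at 22°C with 16 h light and 8 h dark. The OE plants flower late in the study, and the comparison asks how the genes of this repressor family stood in them, *MAF5* and its clustered paralogs first.

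FLC binds regulatory DNA of the floral integrator genes *FT* and *SOC1* and keeps them low until prolonged cold silences *FLC* through Polycomb proteins. The MAF proteins are close relatives of FLC, and SVP, which belongs to another branch of the MADS-box family, forms complexes with FLC. It also pairs with MAF1 (also named FLM) in the response to ambient temperature. Col-0 lacks a functional *FRIGIDA* allele, the main activator of *FLC*, so that its *FLC* level is low without any cold.

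*MAF2*, *MAF3*, *MAF4* and *MAF5* lie head to tail on the plus strand of chromosome 5. In TAIR10.1 the cluster reaches over 20366 bases, with gaps of 873 bases between *MAF2* and *MAF3*, 780 bases between *MAF3* and *MAF4* and 1301 bases between *MAF4* and *MAF5*. *MAF5* (chr5:25997504-26002619) has 3 annotated transcripts and 6 exons in the longest. *FLC* lies far away on the minus strand of the same chromosome (chr5:3173382-3179448), *MAF1* on chromosome 1 (chr1:28955483-28960234) and *SVP* on chromosome 2 (chr2:9579647-9583901).

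How alike the genes are bears on which gene a read is counted for, so the start of the MADS box, the DNA-binding domain and the most conserved stretch of the family, is given here for all 7. The sequences are the coding strand of RefSeq TAIR10.1, 60 bases from the ATG that all 7 share, and capitals mark the bases that differ from *MAF5*. This ATG is the annotated start codon of the longest coding sequence in the other 6 genes, whereas in the longest of *MAF5* it begins at coding base 22.
MAF5, chr5:25997671-25997730: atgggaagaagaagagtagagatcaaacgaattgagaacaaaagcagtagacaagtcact
MAF4, chr5:25992310-25992369: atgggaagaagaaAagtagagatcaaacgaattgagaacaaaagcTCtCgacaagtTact
MAF3, chr5:25987527-25987586: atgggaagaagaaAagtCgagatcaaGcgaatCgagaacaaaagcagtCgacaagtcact
MAF2, chr5:25982415-25982474: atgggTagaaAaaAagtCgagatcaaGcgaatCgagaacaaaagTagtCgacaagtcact
MAF1, chr1:28955679-28955738: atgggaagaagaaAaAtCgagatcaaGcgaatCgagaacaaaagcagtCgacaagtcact
FLC, chr5:3179280-3179339: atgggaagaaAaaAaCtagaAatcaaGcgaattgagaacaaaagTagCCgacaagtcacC
SVP, chr2:9580417-9580476: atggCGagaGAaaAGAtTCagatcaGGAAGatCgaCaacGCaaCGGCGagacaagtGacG

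Over this stretch *MAF3* and *MAF4* differed from *MAF5* at 5 bases each, *MAF1* at 6, *MAF2* at 8, *FLC* at 9 and *SVP* at 25. Over the aligned bases of the longest coding sequences, with gaps left out, *MAF5* was 85.7% identical to *MAF4*, 77.9% to *MAF2* and 72.9% to *FLC*. *MAF2* and *MAF3* were 93.6% identical to each other. No 100-base window of any annotated transcript of the 7 genes occurred elsewhere in the TAIR10.1 genome or its transcripts without a mismatch. The 1322 windows of *MAF5* differed by 7 bases or more from every other gene of the group. In contrast, 21% of the *MAF3* windows, 7.72% of the *MAF2* windows and 2.6% of the *MAF1* windows came within 5 mismatches of another member. These were 326 of 1554, 276 of 3574 and 133 of 5110 windows. The longest annotated transcripts of *MAF1* and *MAF2* have 4099 and 3147 bases, against 884 and 964 bases in the deposited models. The shares are therefore not comparable between genes, and those of *MAF1* and *MAF2* may understate the likeness over the deposited models. The sources used here do not say how reads with more than 1 mapping place were counted. The split of reads among *MAF1*, *MAF2* and *MAF3* is therefore less certain than the count of *MAF5*.

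The study's qRT-PCR primers for *MAF5* show where a second assay of the gene reads it. The study ran that assay on the RNA that was also sequenced, so it is not a second set of plants. The primers are printed 5′ to 3′ in lower case.
MAF5 forward primer, exon 5, chr5:26001258-26001277, plus strand: ggagcttgtgaagaaccttc
MAF5 reverse primer, exon 6, chr5:26002213-26002232, minus strand: tcagccgttgatgattggtg

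Both primers matched *MAF5* without a mismatch. The closest site of the forward primer in the transcripts of *FLC* and the other *MAF* genes was in *MAF4*, with 2 mismatches, and that of the reverse primer was in *MAF1*, with 3. The forward primer matched 3 of the 3 annotated *MAF5* transcripts, and the reverse primer 2 of 3.

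The libraries held 11556077 counted reads for OE line #3, 10786332 for OE line #6 and 9968154 for Col-0. A count of 3 reads, the most that a count of 0 allows, corresponded to 0.275 CPM in OE line #3, 0.258 CPM in OE line #6 and 0.307 CPM in Col-0, where CPM is the count relative to the library size after TMM scaling. Both OE lines were treated as 2 samples of the overexpression and the lone Col-0 pool was assumed to vary like them. edgeR's quasi-likelihood test, with Benjamini-Hochberg adjustment over all 18802 genes, then called 43 genes higher (0.229%) and 37 lower (0.197%) in the OE lines at an adjusted p under 0.05, 0.425% in either direction. Of the 7 repressor genes 1, *MAF5*, was called higher and 0 were called lower. *MAF5* was also the only member with an unadjusted p under 0.05, and DESeq2 called it too, among the 5 members to which it gave an adjusted p (not *FLC* and *MAF4*). Nothing states that the pools were replicated, so no p-value measures the spread between replicate pools of a genotype, and all intervals cover counting error alone. The edgeR p-values rest on the spread between the 2 OE lines, with 1 residual degree of freedom. The larger part, 13.56 prior degrees of freedom, is taken from other genes. Col-0, with 1 library, adds no spread of its own.

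*MAF5* had 64 reads in OE line #3 and 74 in OE line #6, against 4 reads in Col-0. These are 5.86 and 6.36 CPM in the OE lines, against 0.409 CPM in Col-0. Both lines lay far above Col-0 and close to each other, and the counting intervals of the lines (4.51 to 7.49 and 4.99 to 7.98 CPM) did not overlap that of Col-0 (0.111 to 1.05 CPM). The OE lines averaged 6.11 ± 0.352 CPM (SD, n = 2) and Col-0 had 0.409 CPM (n = 1), a ratio of 15.0 with a counting interval of 5.71 to 55.7. *MAF5* was therefore higher in the OE lines, at a log2 fold change of 3.86 (SE 0.52, edgeR adjusted p = 0.00175). The ratio of OE line #3 to OE line #6 was 0.922 (0.649 to 1.31). *MAF5* passed the filter on low counts through the OE lines alone. Where the filter asked for at least 1 read in any library, *MAF5* was called too (edgeR adjusted p = 0.00634). Under a random sampling model, which sets the reads of 1 library against those of another and not genotype against genotype, the log2 ratio of *MAF5* was 3.79 for OE line #3 (q = 4.1e-12) and 4.10 for OE line #6 (q = 5.0e-15). That model called 6.66% of 21362 genes higher in OE line #3 and 14.9% of 21200 genes higher in OE line #6. In pooled organs, more cells that express a gene and more RNA per cell cannot be told apart.

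**Figure D1:**
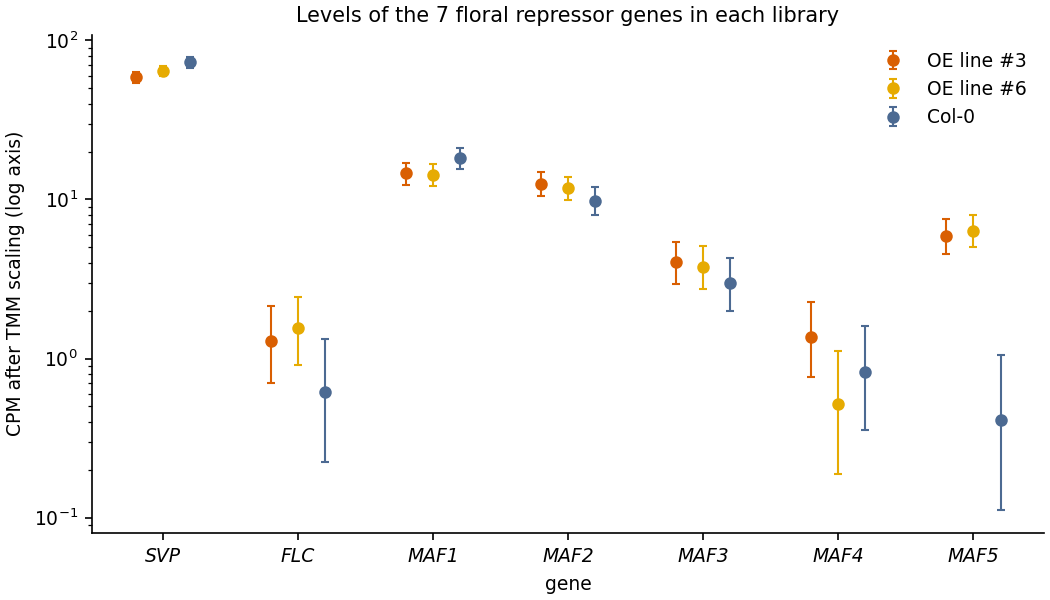
Level of each gene (x axis) in CPM after TMM scaling on a log axis (y axis), 1 point per library for OE line #3, OE line #6 and Col-0. Bars are exact 95% Poisson intervals of the count. *MAF5* stood at 5.86 and 6.36 CPM in the OE lines and at 0.409 CPM in Col-0, and it is the 1 gene of the 7 for which the intervals of both lines lie apart from that of Col-0.

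Among all tested genes *MAF5* ranked 21st of 18802 by log2 fold change and 8th of the 43 genes called higher. By edgeR p it ranked 24th. These ranks rest on 4 reads in Col-0 and on a gene tested through the OE lines alone, so they are descriptions only. Both OE lines lay more than 2 times above Col-0 in CPM for 2 of the 7 members, *MAF5* and *FLC*, against 1.34% of all tested genes, but both passed the filter through the OE lines alone, so nothing is read from this count.

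None of the clustered paralogs of *MAF5* passed the test. *MAF2*, which keeps plants from flowering after brief cold, had 137 reads in OE line #3 and 137 in OE line #6, against 96 in Col-0 (12.5 and 11.8 CPM, against 9.82 CPM). Both lines were slightly above Col-0, with overlapping counting intervals, and the log2 fold change of 0.31 (SE 0.23) did not pass the test (edgeR adjusted p = 0.868). *MAF3*, its closest relative in sequence, had 44 reads in each OE line, against 29 in Col-0 (4.03 and 3.78 CPM, against 2.97 CPM). Its lines too were above Col-0 by less than the counting error, at a log2 fold change of 0.40 (SE 0.37, edgeR adjusted p = 0.913).

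*MAF4*, the neighbor next to *MAF5* and its closest relative in coding sequence, had 15 reads in OE line #3 and 6 in OE line #6, against 8 in Col-0 (1.37 and 0.516 CPM, against 0.818 CPM). OE line #3 was above Col-0 and OE line #6 below it, so that the groups overlapped. Its log2 fold change was 0.19 (SE 0.83, edgeR adjusted p = 0.990), and the ratio of OE line #3 to OE line #6 was 2.66 (0.977 to 8.38). At 6 to 15 reads a change of the size of that of *MAF2* was not detectable in *MAF4*.

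A share within a library does not depend on the scaling, so the reads of the cluster were also compared as shares. *MAF5* took 24.6% of the reads counted for *MAF2* to *MAF5* in OE line #3 (exact Clopper-Pearson interval 19.5 to 30.3%) and 28.4% in OE line #6 (22.97 to 34.2%), against 2.92% in Col-0 (0.801 to 7.31%). The intervals of the lines overlapped each other and lay above that of Col-0. The share of *MAF2* was 52.7% in OE line #3 and 52.5% in OE line #6, against 70.1% in Col-0. Because shares sum to a whole, the lower share of *MAF2* in the lines stands beside a count of *MAF2* that was not lower.

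**Figure D2:**
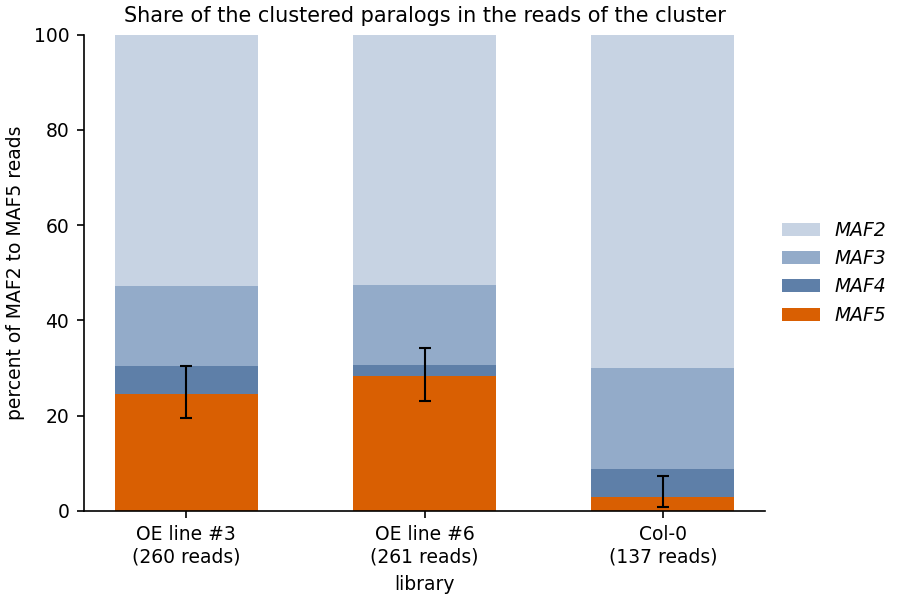
Share of *MAF2*, *MAF3*, *MAF4* and *MAF5* (stacked colors) in the reads counted for the cluster (y axis, percent) in OE line #3, OE line #6 and Col-0 (x axis, with the reads of the cluster). Black bars are exact 95% intervals of the *MAF5* share, which was 24.6% and 28.4% in the OE lines and 2.92% in Col-0.

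*MAF5* minus the mean of *MAF2*, *MAF3* and *MAF4*, in log2 CPM with 0.5 read added, was 0.50 in OE line #3 and 1.13 in OE line #6, against -2.68 in Col-0. *MAF5* was thus above the mean of the log2 values of its paralogs in both lines and below it in Col-0. That mean is pulled down by *MAF4*, at 15 and 6 reads in the OE lines. *MAF2* alone was above *MAF5* in both lines, at 12.5 and 11.8 CPM against 5.86 and 6.36 CPM. The difference between OE lines and Col-0 was 3.50, and the exact two-sided permutation test gave p = 0.333, the smallest that 2 libraries against 1 allow. Taken without *MAF5*, the cluster held 196 reads in OE line #3 and 187 in OE line #6, against 133 in Col-0, a CPM ratio of 1.25 (1.02 to 1.53). With *MAF5* it held 260 and 261 reads in the OE lines, against 137 in Col-0, a CPM ratio of 1.65 (1.36 to 2.01). Counted as 1 feature, the cluster had a log2 fold change of 0.72 (SE 0.20) that did not pass the test (edgeR adjusted p = 0.262).

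Of the annotated neighbors of the cluster 2 could be tested, and neither passed. *AT5G65040*, before *MAF2*, had 17 reads in OE line #3 and 19 in OE line #6, against 11 in Col-0, at a log2 fold change of 0.50 (SE 0.62, edgeR adjusted p = 0.941). *ACX2*, an acyl-CoA oxidase gene of fatty acid breakdown after *MAF5*, had 529 and 691 reads in the OE lines, against 492 in Col-0, at a log2 fold change of 0.10 (SE 0.19, edgeR adjusted p = 0.967). In CPM both lines were above Col-0 in *AT5G65040*, and Col-0 lay between the lines in *ACX2*. *AT5G65030* had 3 and 5 reads in the OE lines, against 5 in Col-0. *BST1*, the gene directly after *MAF5*, had 5 reads in OE line #3 and 8 in OE line #6, against 6 in Col-0. These genes and *AT5G65100*, which had 0 reads in all 3 libraries, were too low to test. The noncoding gene *AT5G09295* before *MAF2* and *AT5G01675*, an antisense transcript gene that overlaps *FLC*, were not analysed here.

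**Figure D3:**
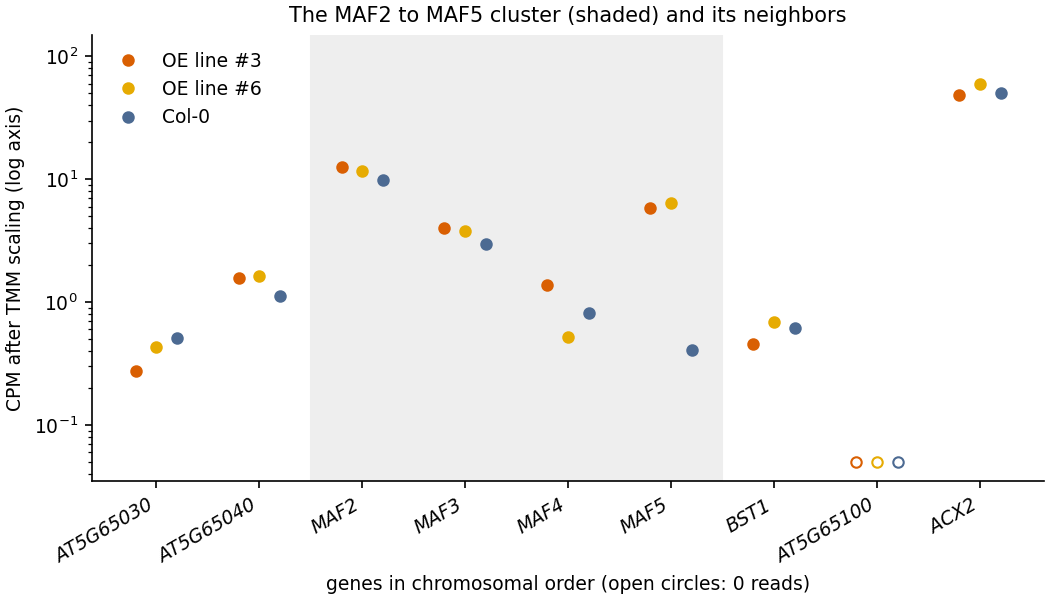
CPM on a log axis (y axis) of the genes in and around the cluster in chromosomal order (x axis), 1 point per library, with the cluster shaded and open circles for 0 reads. *MAF5* is the gene where both OE lines (5.86 and 6.36 CPM) stand far from Col-0 (0.409 CPM), while *BST1* beside it had 5, 8 and 6 reads in OE line #3, OE line #6 and Col-0.

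*FLC* was close to the limit of these libraries, and since no step that marks the strand is named, its reads cannot be told apart from those of the antisense transcripts over the gene. It had 14 reads in OE line #3 and 18 in OE line #6, against 6 in Col-0 (1.28 and 1.55 CPM, against 0.613 CPM). Both lines were above Col-0, and the counting intervals overlapped. The ratio of 2.31 had a counting interval of 0.954 to 6.77, and the log2 fold change of 1.19 (SE 0.74) did not pass the test (edgeR adjusted p = 0.816).

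The most abundant members stood slightly below Col-0. *MAF1* had 159 reads in OE line #3 and 166 in OE line #6, against 178 in Col-0 (14.6 and 14.3 CPM, against 18.2 CPM). Both lines were lower than Col-0 and close to each other, at a log2 fold change of -0.34 (SE 0.20, edgeR adjusted p = 0.802). The ratio of the lines to Col-0 was 0.792, with a counting interval of 0.658 to 0.956. *SVP* had 638 reads in OE line #3 and 745 in OE line #6, against 710 in Col-0 (58.4 and 64.0 CPM, against 72.6 CPM), and its log2 fold change was -0.25 (SE 0.18, edgeR adjusted p = 0.861). Both lines were below Col-0, and the counting interval of OE line #3 alone did not overlap that of Col-0. The ratio of the lines to Col-0 was 0.845, with a counting interval of 0.771 to 0.926. The ratio intervals of *MAF1* and *SVP* thus lay below 1, but they cover counting error alone. In the random sampling model *SVP* was lower in OE line #3 (log2 ratio -0.37, q = 4.4e-05) but not past the threshold in OE line #6 (log2 ratio -0.04, q = 0.774). That model called 13.5% of 21362 genes lower in OE line #3 and 3.7% of 21200 genes lower in OE line #6.

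In all, both OE lines lay above Col-0 in CPM for 4 of the 7 members (*FLC*, *MAF2*, *MAF3* and *MAF5*), where 34.9% of all tested genes did so. Both lay below Col-0 for 2 members (*MAF1* and *SVP*), where the share of all tested genes was 34.6%. The median log2 fold change of the 7 was 0.31, against 0.0058 over all tested genes. With *FLC*, *MAF4* and *MAF5* tested through the OE lines alone, these counts and the median are descriptions only.

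Summed over *FLC* and *MAF1* to *MAF4*, the lines and Col-0 held nearly the same amount. The sum was 369 reads in OE line #3 and 371 in OE line #6, against 317 in Col-0 (33.8 and 31.9 CPM, against 32.4 CPM), a ratio of 1.01 (0.886 to 1.16). Within this sum *MAF1* was lower in the lines, at a ratio of 0.792 (0.658 to 0.956). *MAF2* to *MAF4* together were higher, at 1.25 (1.02 to 1.53), and *FLC* was at 2.31 (0.954 to 6.77). With *MAF5* added, the ratio of the whole sum was 1.19 (1.04 to 1.35). Over all 7 genes, where *SVP* carries most reads, the CPM ratio was 0.951 (0.883 to 1.02).

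Levels can be compared between genes only per length, here as RPKM with the model lengths of the table. In OE line #3 *MAF5* stood 4th at 5.44 RPKM, after *SVP* (35.5), *MAF1* (15.6) and *MAF2* (12.3) and before *MAF3* (4.05), *FLC* (1.31) and *MAF4* (1.29). In OE line #6 it stood 4th as well, at 6.74 RPKM, between *MAF2* (13.2) and *MAF3* (4.34), with *SVP* at 44.4, *MAF1* at 17.4, *FLC* at 1.80 and *MAF4* at 0.551. The intervals of *MAF5* and *MAF3* overlapped in both lines, as did those of *MAF1* and *MAF2* and those of *FLC* and *MAF4*. Those of *MAF5* and *MAF2* did not overlap in either line. In Col-0 the order was *SVP* (45.8), *MAF1* (20.2), *MAF2* (9.99), *MAF3* (3.10), *MAF4* (0.795), *FLC* (0.649) and *MAF5* (0.394). *MAF5* was thus the lowest of the family in Col-0, although the counting intervals of *MAF4*, *FLC* and *MAF5* overlapped there.

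The genes whose pattern over the 3 libraries was most like that of *MAF5* were sought among all tested genes, by the Euclidean distance between the log2 ratios of OE line #3 and of OE line #6 to the Col-0 library that both share. The nearest was *HEI10*, a ubiquitin ligase gene of meiotic crossing over, with 159 and 158 reads in the OE lines, against 10 in Col-0 (distance 0.157). It was followed by *HSP17.6A*, a small heat shock protein gene, with 792 and 967 reads in the OE lines, against 48 in Col-0 (distance 0.329). Both genes were called higher in the OE lines and lay within the counting interval of the *MAF5* ratio, at 13.7 and 15.9 times Col-0. The locus *MIR824* had 19 and 34 reads in the OE lines, against 1 in Col-0 (distance 0.495), a ratio of 23.0 with a counting interval of 3.95 to 925, and it did not pass the test (edgeR adjusted p = 0.0898). *HSP17.4* (265 and 433 reads in the OE lines, against 28 in Col-0) and *HSP17.6II* (243 and 222 reads in the OE lines, against 20 in Col-0), further small heat shock protein genes, came next at distances of 0.634 and 0.667. *MAF5* and *MIR824* passed the filter on low counts through the OE lines alone. The place of *MAF5* rests on 4 reads in Col-0, and its ratio had a counting interval of 5.71 to 55.7. The likeness rests on 3 libraries and is a description.

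**Figure D4:**
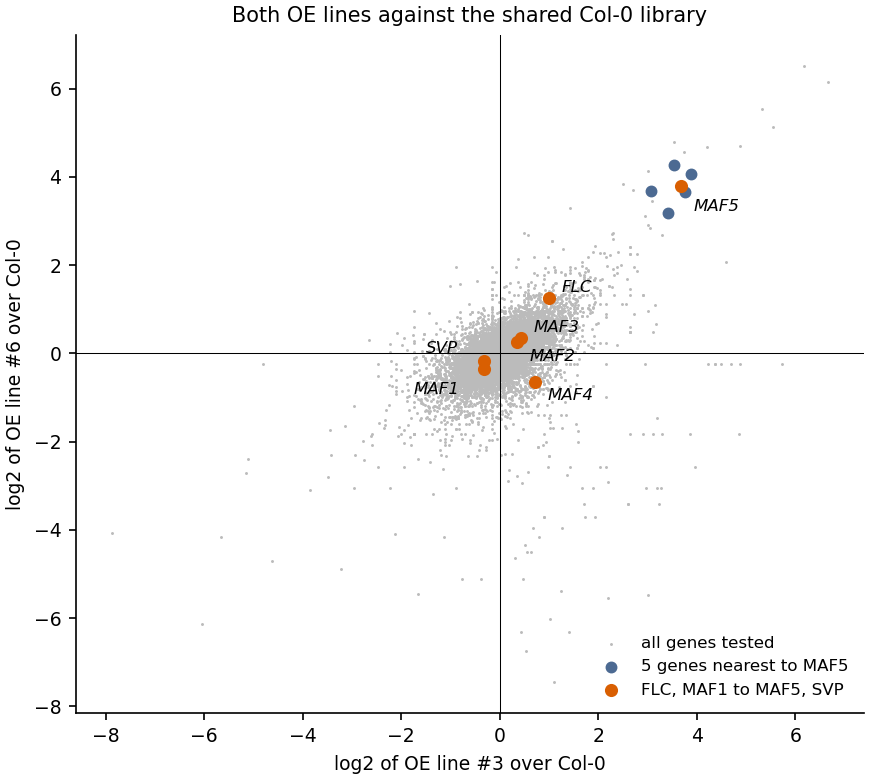
log2 ratio of OE line #3 to Col-0 (x axis) and of OE line #6 to Col-0 (y axis), from TMM-scaled CPM with 0.5 read added, for all 18802 tested genes (gray), the 7 repressor genes (orange) and the 5 genes nearest to *MAF5* (blue). Both axes share the Col-0 library. *MAF5* lies at 3.68 and 3.80 among its nearest genes, and the other 6 members lie much nearer to 0 on both axes.

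Upstream and downstream genes of the repressors were read from lists of the pathway. None of the 19 *FLC* activator genes tested was called in either direction by edgeR or by DESeq2, and 2 had an unadjusted edgeR p under 0.05, as did 7.38% of all 18802 genes. These were *PIE1*, the ATPase gene of the complex that places histone H2A.Z (23.4 and 18.7 CPM in the OE lines, against 14.8 CPM in Col-0, edgeR adjusted p = 0.603), and *HUB1*, a ubiquitin ligase gene for histone H2B (22.1 and 23.0 CPM in the OE lines, against 16.7 CPM in Col-0, edgeR adjusted p = 0.658). The values of both lines were above Col-0 in each gene, at log2 fold changes of 0.51 (SE 0.22) and 0.44 (SE 0.20). These activators had a median log2 fold change of 0.17, against 0.0058 over all tested genes.

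The genes that lower *FLC* were not called either, with 0 of 10 in the autonomous pathway and 0 of 11 tested among Polycomb and vernalization genes by edgeR and DESeq2 alike. In each list 1 gene had an unadjusted edgeR p under 0.05, which is near the 7.38% of all tested genes. It was *LD* in the autonomous pathway, a homeodomain protein gene (23.7 and 21.5 CPM in the OE lines, against 16.4 CPM in Col-0, edgeR adjusted p = 0.620). In the other list it was *VRN2*, which encodes a Polycomb subunit (22.0 and 18.0 CPM in the OE lines, against 13.4 CPM in Col-0, edgeR adjusted p = 0.531). Next by p were *FCA*, an RNA-binding protein gene (20.5 and 21.4 CPM in the OE lines, against 18.3 CPM in Col-0), and *LHP1*, whose protein binds Polycomb-marked histone H3 (18.1 and 16.7 CPM in the OE lines, against 12.8 CPM in Col-0). The lines were above Col-0 in each of these genes, at log2 fold changes of 0.20 to 0.58. The list medians were -0.00028 for the autonomous pathway and 0.21 for Polycomb and vernalization genes.

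Of the 9 targets and partners of FLC and SVP 6 could be tested, and 0 were called by edgeR or DESeq2. *FUL*, a MADS-box gene that promotes flowering and fruit growth, had the smallest p. It had 84 reads in OE line #3 and 66 in OE line #6, against 138 in Col-0 (7.69 and 5.67 CPM, against 14.1 CPM), a log2 fold change of -1.08 (SE 0.25, edgeR adjusted p = 0.119). Both lines were below Col-0. *SOC1*, the floral integrator that FLC and SVP repress, had 486 and 630 reads in the OE lines, against 575 in Col-0 (44.5 and 54.1 CPM, against 58.8 CPM, edgeR adjusted p = 0.865). *FT*, the florigen gene, had 1 read in OE line #3 and 3 in OE line #6, against 6 in Col-0, which is too low to test.

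Among other floral repressors 11 of 14 genes could be tested. edgeR called 0 of the 11, with 2 at an unadjusted p under 0.05, as had 7.38% of all tested genes. DESeq2 called 0 of the 9 to which it gave an adjusted p. *AGL16*, a MADS-box repressor and known target of miR824, had the smallest p, at 13.3 and 13.3 CPM in the OE lines, against 19.6 CPM in Col-0, a log2 difference of -0.56 (SE 0.20, edgeR adjusted p = 0.466). *TOE2*, an AP2-like repressor gene, was next, at 10.4 and 9.28 CPM in the OE lines, against 6.24 CPM in Col-0, a log2 difference of 0.66 (SE 0.26, edgeR adjusted p = 0.564). Of 32 other MIKC MADS-box genes, the class to which the 7 belong, 16 could be tested. edgeR called 0 of the 16, with 3 at an unadjusted p under 0.05, again beside 7.38% of all tested genes. DESeq2 called 0 of the 13 to which it gave an adjusted p. Their median log2 fold change was -0.40, with 4 values above 0 and 12 below. The list includes *FUL*, *AGL16* and the flower genes that follow.

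Organ and cell type markers were summed to see what the pooled shoots held, since the repressors act before flowers form. The flower markers (7 of 7 genes detected, among them *AP1*, *AP3* and *SEP3*) summed to 27.9 CPM in OE line #3 and 11.3 CPM in OE line #6, against 24.9 CPM in Col-0. Anther and pollen coat markers summed to 83.8 CPM in OE line #3 and 1.98 CPM in OE line #6, against 22.6 CPM in Col-0, and 3 of their 6 genes (*ATA27*, *AMS* and *MS1*) had 0 reads in OE line #6. The smallest p among the flower markers were those of *SEP1* (5.22 and 5.16 CPM in the OE lines, against 7.36 CPM in Col-0) and *AP3* (3.76 and 0.688 CPM in the OE lines, against 3.48 CPM in Col-0). Among the anther and pollen coat markers they were those of AT5G07230 (5 and 1 reads in the OE lines, against 21 in Col-0) and *GRP17*, a pollen coat protein gene (506 and 1 reads in the OE lines, against 56 in Col-0). None of these genes was called by edgeR with TMM scaling, but with total reads as the scale AT5G07230 (adjusted p = 0.0437) and *GRP17* (adjusted p = 4.1e-06) were called by edgeR. The flower and anther sums thus differed most between the OE lines, whereas *MAF5* differed little between them. Col-0 lay between the lines in both sums, and their part in the results was not tested.

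Phloem companion cell markers (3 of 3 genes) summed to 219 and 202 CPM in the OE lines, against 159 CPM in Col-0, and mesophyll markers to 12997 and 11205 CPM in the OE lines, against 13376 CPM in Col-0. In the phloem list *AHA3*, a proton pump gene, was at 133 and 120 CPM in the OE lines, against 90.7 CPM in Col-0, and *APL*, a phloem identity gene, had 138 and 141 reads in the OE lines, against 88 in Col-0. The phloem sum was higher in both lines, by far less than *MAF5*, and its part in the results was not tested. Shoot meristem markers summed to 39.2 and 36.2 CPM in the OE lines, against 32.4 CPM in Col-0. Guard cell markers (33.9 and 27.8 CPM in the OE lines, against 27.1 CPM in Col-0) and epidermis markers (114 and 96.0 CPM in the OE lines, against 99.3 CPM in Col-0) had OE line #6 close to Col-0. Root markers had 2 reads in OE line #3 and 0 in OE line #6, against 0 in Col-0.

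**Figure D5:**
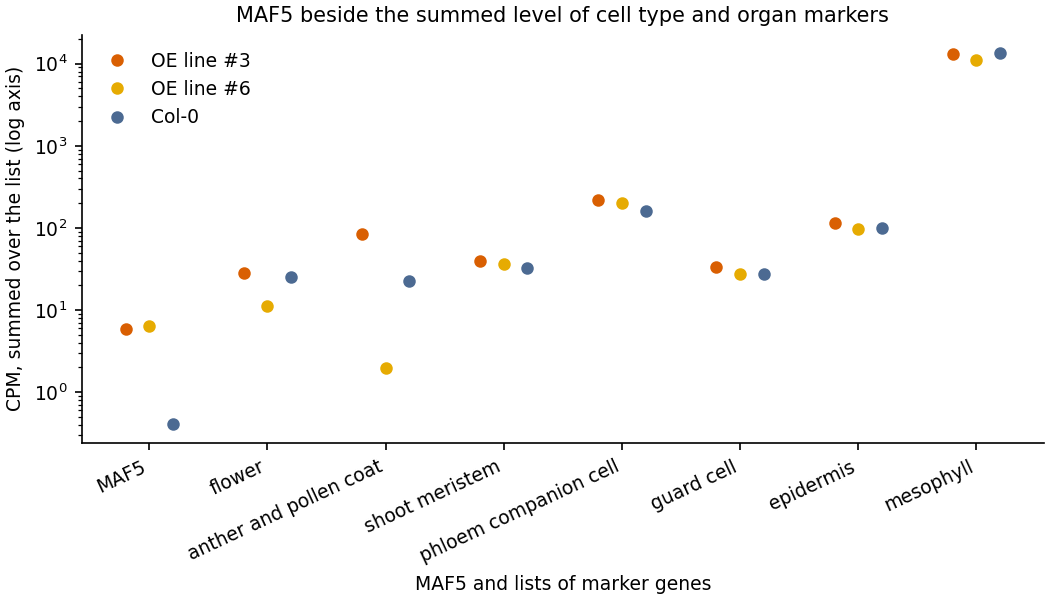
CPM on a log axis (y axis) of *MAF5* and of the summed marker genes of each organ or cell type (x axis), 1 point per library. *MAF5* was alike in the OE lines (5.86 and 6.36 CPM) and at 0.409 CPM in Col-0, while the anther and pollen coat sum was 83.8 CPM in OE line #3, 1.98 CPM in OE line #6 and 22.6 CPM in Col-0.

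Hsfs bind DNA at repeats of nGAAn units in alternating orientation, so the promoters were searched on both strands for a facing pair of units, GAANNTTC, and a pair back to back, TTCNNGAA; either can overlap the other. From 250 bases before to 50 bases after the annotated start, 0 of the 7 genes held a match to either, where 11.6% and 9.16% of 27443 genes of TAIR10.1 did. In the 1000 bases before the start 1 member matched, *MAF3*, which holds TTCCAGAA at -744 (chr5:25986565-25986572), where 30.3% of all genes match TTCNNGAA. The CArG box, the motif that MADS-box proteins bind, was found in *MAF1* alone, at -874, against 7.21% of all genes. A match is a string of letters and not a binding site, and no match says only that these letters are not in the window.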

How the data were processed

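Aerial parts of OE line #3, OE line #6 and Col-0 were sequenced, 1 library each. The authors deposited the count of reads per gene model without normalization. Submitters' processing notes name CASAVA 1.7 and TAIR10. Neither the counting program nor the rule for multiply mapping reads is given in the sources used here. The table's RPKM, fold and q-value columns hold the authors' own comparisons and were not used.

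Counts were scaled by TMM (factors 0.945, 1.08 and 0.981 for OE line #3, OE line #6 and Col-0). They were tested with edgeR 4.0.16 (R 4.3.3, glmQLFit and glmQLFTest, defaults), OE lines against Col-0, with 1 residual degree of freedom and 13.56 prior degrees of freedom. Benjamini-Hochberg adjustment ran over the 18802 genes that reached 10 reads in any library. DESeq2 1.42.0, other scalings and filters, a random sampling model and the summed cluster were alternatives. The newer quasi-likelihood form of edgeR was run first and replaced by the tool's default after its output had been seen. Code was tested on simulated data. RPKM used deposited lengths. Intervals are exact, at 95%.

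Symbols, positions and sequences came from RefSeq TAIR10.1, which held 32835 of the 33602 loci. Of 31728 deposited gene models found there by name, 35.6% had the same length, so no deposited value was given coordinates.

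The members and lists were chosen with earlier results of these data known. Named genes were the 7 members, up to 4 called genes per list or otherwise the 2 with the smallest p (mesophyll, meristem, guard cell and epidermis lists are given as sums only), the 5 genes nearest to *MAF5*, 3 annotated genes on each side of the cluster and genes that overlap a member. Examples beyond these (*FT*, *AP1*, *SEP3*, *ATA27*, *AMS* and *MS1*) were named after their values were seen.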

Additional observations from a re-analysis of the deposited data

How the results depend on the processing

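*MAF5* was called in each edgeR and DESeq2 fit of single genes in which it was tested, at log2 fold changes of 3.41 to 3.91. The edgeR adjusted p was 1.5e-09 with total reads as the scale. In the other edgeR fits and in DESeq2 the adjusted p was 0.00157 to 0.0222. *MAF5* has no value where 10 reads were asked of every library, since Col-0 has 4. With a single OE line against Col-0 the log2 ratio of *MAF5* was 3.84 to 3.96. With *MAF2* to *MAF5* summed to 1 feature the log2 fold change was 0.72, not past the threshold. The *MAF5* share in the OE lines was 26.5% of the cluster and 15.7% of the reads of *FLC* and *MAF1* to *MAF5*; *MAF5* minus its paralogs was 3.18 to 3.81 with single lines. The other 6 members were called in 0 edgeR or DESeq2 fits that gave them an adjusted p (DESeq2 gave none to *FLC* and *MAF4*), and 0 of them had an unadjusted p under 0.05 in the edgeR fit of the report or in DESeq2. *MAF4* changed sign with the line used, at -0.67 to 0.75, and at -0.53 in the random sampling model for OE line #6. *SVP* passed that model's threshold in OE line #3 (-0.37).

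Of all genes, edgeR called 43 higher and 37 lower. The counts were 27 and 14 with at least 1 read in any library, 25 and 17 with 10 reads in every library, 30 and 14 with DESeq2, and 32 and 22 with the newer quasi-likelihood form, an alternative added after seeing the data. Total reads as the scale gave 58 and 45, and called 2 of 5 anther and pollen coat genes. The planned older form is the default of the edgeR version used and so equals the fit of the report. No paired analysis was possible because Col-0 shares no replicate number with the OE lines. Depth limits *FLC* and *MAF4*, at 6 to 18 reads. It also limits the size of the *MAF5* change, with 4 reads in Col-0 and a ratio interval of 5.71 to 55.7.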
